A study of Mus musculus with 19 samples.

Results

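Of 19 mouse mammary tumours in the series, the 12 that carried a response label after chemotherapy, 3 responders and 9 non-responders, were compared with each other. The tumours were chosen by the last word of their titles, Responder or Non-responder, and no measured value entered the choice. All 19 were mammary adenocarcinomas of FVB mice with a simian virus 40 T antigen transgene under the rat C3(1) promoter, so responders, non-responders and untreated tumours shared strain and transgene. The 12 tumours came from mice treated with carboplatin and paclitaxel, named carbo/taxol in the labels, for 2 or 3 weeks. After 2 weeks there were 1 responder and 4 non-responders, and after 3 weeks 2 responders and 5 non-responders. The 7 untreated tumours, which have no response label, are used here only as levels beside the treated ones. The sources used here do not say how or when response was judged, how old the mice were or whether each tumour came from its own animal. Responder 3 and non-responder 1 have the same number in their titles, with different suffixes. Because the transgene is driven by 1 promoter in 1 inbred strain, the tumours are a narrow model of breast cancer.

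Simian virus 40 large T antigen binds p53 and the retinoblastoma protein, and so disables the checkpoint that stops cells with damaged DNA and the brake on entry into S phase. Carboplatin forms platinum crosslinks between DNA bases, which nucleotide excision repair and the Fanconi anaemia and homologous recombination pathways remove. Paclitaxel stabilises microtubules and holds dividing cells in mitosis, and both P-glycoprotein and the composition of tubulin are known to alter sensitivity to it in cultured cells. A tumour sample also holds fibroblasts, blood vessels, immune cells and pieces of neighbouring tissue, and their RNA is measured together with that of the cancer cells.

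Each array gave a log2 ratio of tumour RNA over a whole-mouse reference RNA for 45220 spots, so a value of 1 is a level double that of the reference and differences between tumours are in log2 units. The direction of the ratio is likely rather than stated. It rests on genes of the liver, an organ contained in a whole-mouse reference, which were far below 0 in all 12 treated tumours: Fabp1 stood between -7.70 and -6.18 and Apoa1 between -5.64 and -3.87. If the ratio ran the other way, every sign below would turn. The epithelial genes Epcam, Krt8 and Krt18 were above 0 in 12 of 12 treated tumours, from 1.05, 1.02 and 1.39 upwards, whereas Cdh1, which encodes E-cadherin, was above 0 in 2 of 12. Between 1.63% and 7.97% of the spots of a treated array were listed at exactly 0 and were taken as not measured. The 3 responders carry a hyphen after the word Tag in their titles, as do non-responders 1 and 2, whereas the other 7 non-responders have a low line (_) in that place. The sources used here do not say what this title style follows. Values with it as a further term, or within the 5 hyphen-titled tumours, are therefore set beside the results. The fit within those 5 tumours has no term for weeks of treatment.

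No gene separated responders from non-responders after adjustment over all genes. With weeks of treatment as a covariate, 0 of 18571 genes (0%) had an adjusted p under 0.05 in limma, and the smallest adjusted p was 0.179. At an unadjusted p under 0.05 there were 1228 genes (6.61%), of which 599 (3.23%) were higher and 629 (3.39%) lower in responders, where 929 genes make up 5% of those tested. Without responder 1 the 1228 became 750, with title style as a further term 660, and within the hyphen-titled tumours 597. Of the 1228 genes, 262 were also under 0.05 with the title style term and 164 within the hyphen-titled tumours. The median 95% interval of a difference reached 0.66 log2 units to either side, and for 1 gene in 10 it reached 1.32 or more. Differences named below therefore did not pass, and are given as values with their errors. Nothing in the labels places all tumours in separate animals, so the p-values measure only the spread between these samples.

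**Figure D1:**
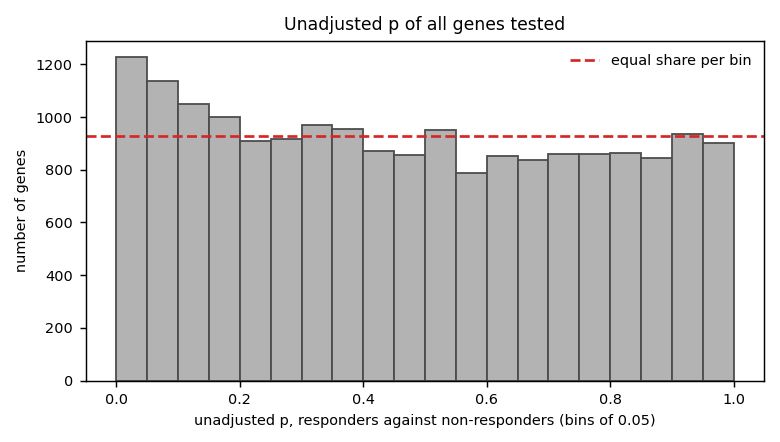
Histogram of the unadjusted p of the 18571 genes tested, with p on the horizontal axis in bins of 0.05 and the number of genes on the vertical axis; the dashed line marks an equal share of genes per bin. The leftmost bin holds 1228 genes beside an equal share of 929.

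Across whole arrays the responders did not form a group of their own. Pearson correlations over the genes measured were 0.787 to 0.821 between responders, 0.663 to 0.890 between non-responders and 0.694 to 0.862 between a responder and a non-responder. The tumours with the shared number, responder 3 and non-responder 1, correlated at 0.831. Responders lay between 16.4 and 43.6 on the second principal component, which held 16% of the variance over 15775 genes, and non-responders between -54.3 and 34.8. The groups overlapped on each of the first 4 components.

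Promoter windows of 300 bases around a gene's start are given for the 2 members of smallest p in each of the cell type lists with the most members at an unadjusted p under 0.05, skeletal muscle and cornified squamous epithelium. They are RefSeq sequences of build GRCm38.p6, read 5′ to 3′ on the gene's own strand. Capitals mark CAGCTG, an E-box that myogenic factors such as MyoD bind, in the muscle genes, and TGANTCA, the core recognised by AP-1 factors, in the squamous genes. Both motifs read the same on both strands.
Eno3, chr11:70656926-70657225, plus strand: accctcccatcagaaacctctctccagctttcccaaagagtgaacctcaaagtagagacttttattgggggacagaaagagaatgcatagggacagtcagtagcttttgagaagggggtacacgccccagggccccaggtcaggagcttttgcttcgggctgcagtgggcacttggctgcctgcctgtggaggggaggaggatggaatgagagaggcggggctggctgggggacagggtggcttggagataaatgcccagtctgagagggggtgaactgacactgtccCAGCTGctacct
Myh4, chr11:67237562-67237861, plus strand: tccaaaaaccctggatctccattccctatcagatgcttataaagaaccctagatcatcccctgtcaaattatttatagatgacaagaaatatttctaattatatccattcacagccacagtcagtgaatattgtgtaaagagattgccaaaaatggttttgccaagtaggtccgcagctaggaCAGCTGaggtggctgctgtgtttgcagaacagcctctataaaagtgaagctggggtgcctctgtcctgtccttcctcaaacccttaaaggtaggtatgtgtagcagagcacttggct
Lor, chr3:92083093-92083392, minus strand: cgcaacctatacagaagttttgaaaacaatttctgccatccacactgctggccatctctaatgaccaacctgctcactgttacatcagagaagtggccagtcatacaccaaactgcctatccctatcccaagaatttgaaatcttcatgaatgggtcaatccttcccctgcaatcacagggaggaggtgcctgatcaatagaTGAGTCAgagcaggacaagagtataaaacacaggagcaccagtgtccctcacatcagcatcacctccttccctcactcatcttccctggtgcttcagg
Krt10, chr11:99389315-99389614, minus strand: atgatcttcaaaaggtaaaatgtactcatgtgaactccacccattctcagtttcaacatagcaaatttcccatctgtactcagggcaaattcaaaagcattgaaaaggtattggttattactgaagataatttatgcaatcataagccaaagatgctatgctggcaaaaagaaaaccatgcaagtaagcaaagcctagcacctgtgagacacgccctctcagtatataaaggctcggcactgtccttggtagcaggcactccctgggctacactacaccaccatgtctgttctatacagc

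Eno3 and Myh4 each hold 1 CAGCTG, Lor holds 1 TGANTCA, and Krt10 holds no match in this window. The motif CAGCTG was in 12 of 24 windows (50%) of 21 muscle genes and in 16.3% of all 32851 windows. For the core of MEF2 sites, CTA and TAG with any 4 bases between them, the shares were 4.2% and 3.7%, and none of the windows shown holds it. The motif TGANTCA was in 9 of 20 windows (45%) of 16 squamous genes and in 7.8% of all windows. A match describes the letters only, and no binding was measured here.

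Genes of skeletal muscle were the list with the most members higher in responders at an unadjusted p under 0.05. They numbered 12 of 26, or 46.2% beside the 3.23% of all genes, with 0 lower, and none passed adjustment. The median difference over the list was 0.72 beside -0.0044 over all genes, and 22 of 26 were above 0. The mean log2 ratio of the 26 genes was -2.70, -2.15 and -3.59 in responders 1 to 3, and -4.11 at the lowest, -3.61 at the median and -2.83 at the highest in non-responders. Responders 1 and 2 stood above all 9 non-responders, and responder 3 stood among them. In untreated tumours the same mean ran from -5.27 to -2.65, a range that holds responders 1 and 3.

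Eno3, the muscle form of the glycolytic enzyme enolase, was -2.90, -3.56 and -4.96 in responders 1 to 3 and between -5.83 and -4.49 in non-responders, with a median of -5.71. Its difference was 1.71 ± 0.40 (SE), a 3.26-fold higher level in responders, with an adjusted p of 0.592. Responders 1 and 2 were above every non-responder, and responder 3 was below non-responder 2, the highest of them. Myh4, the myosin heavy chain of fast type IIb fibres, was 1.41, 2.65 and -1.87 in responders, beside -5.04 to 0.04 in non-responders with a median of -4.13. The difference of 4.31 ± 1.15 is the widest of any gene named here, and its 95% interval runs from 1.80 to 6.83. Actn3, which crosslinks actin in fast fibres, differed by 1.61 ± 0.44 and Myh2, the type IIa myosin, by 1.60 ± 0.45, with adjusted p of 0.613 and 0.62. In all 4 genes non-responder 2, a hyphen-titled tumour, was the highest non-responder, at -4.49, 0.04, -2.83 and -3.26.

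The count of muscle genes depended on single tumours and on title style. It was 7 without responder 1, 7 without responder 2 and 17 without responder 3, and the median difference was 0.26 without responder 2 and 1.09 without responder 3. With title style as a further term the count was 0 and the median 0.33, and within the hyphen-titled tumours 0 and 0.44. Between the tumours of the shared number, responder 3 minus non-responder 1, Eno3 differed by 0.32, Myh4 by 2.39, Actn3 by 0.30 and Myh2 by 0.55. These genes were chosen by a fit that held both tumours. Over the whole muscle list the median in this pair was -0.06, with 11 of 26 genes above 0. In bulk RNA, more cells of a type and more RNA per cell cannot be told apart, and whether muscle lay in the pieces taken was not tested.

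Genes of cornified squamous epithelium, the outer layers of skin and of squamous metaplasia, gave 6 of 23 members (26.1%) higher at an unadjusted p under 0.05 and 0 lower, beside 3.23% and 3.39% of all genes. The median difference was 0.62, and 20 of 23 were above 0. Their mean log2 ratio was -0.94, -1.66 and -0.94 in responders and -2.26 to -1.25 in non-responders with a median of -1.95, so responders 1 and 3 exceeded all non-responders and responder 2 did not. Lor, which encodes the cornified envelope protein loricrin, was -2.43, -4.62 and -2.48 in responders and -6.16 to -4.25 in non-responders, with a median of -5.24. It differed by 2.06 ± 0.50, a 4.16-fold higher level, but by 0.999 with title style as a further term and 1.24 within the hyphen-titled tumours. Krt10, the keratin of differentiating epidermis, was -0.83, -3.74 and -1.39 in responders and -4.25 to -3.09 in non-responders, with a median of -3.89. Responder 2 thus sat at the non-responder level for Lor and Krt10, while the other two were above every non-responder.

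Krt10 differed by 1.86 ± 0.45 with an adjusted p of 0.592, and without responder 2 by 2.66 with an adjusted p of 0.0374, the one setting in which it passed. Krt1, the partner keratin of Krt10, differed by 0.79 ± 0.23 and Dsg1a, a desmosomal cadherin of the epidermis, by 1.59 ± 0.60. With title style as a further term 2 squamous genes were under 0.05 and the median was 0.42, and within the hyphen-titled tumours the values were 2 and 0.60. The count was 2 without responder 3, 4 without responder 1 and 9 without non-responder 6. Within the shared-number pair Lor was 2.10 and Krt10 2.41 higher in the responder. Muscle and squamous genes were therefore high in different responders: both lists were high in responder 1, muscle in responder 2 and squamous genes in responder 3.

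**Figure D2:**
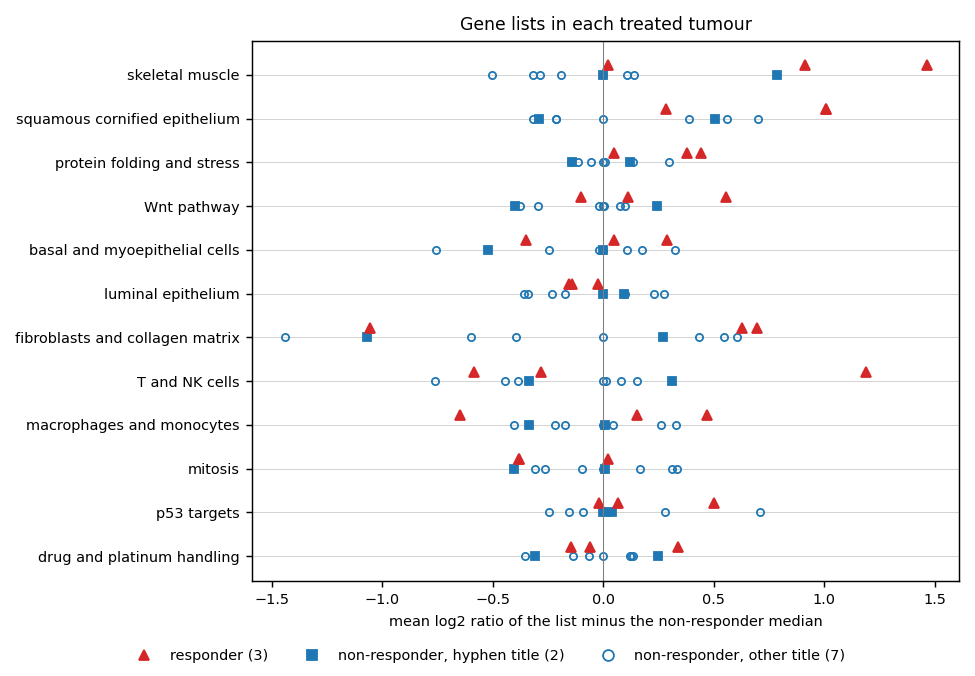
Mean log2 ratio of 12 gene lists in each treated tumour, with the non-responder median of each list set to 0 on the horizontal axis; triangles are the 3 responders, filled squares the 2 hyphen-titled and open circles the other 7 non-responders. For skeletal muscle and for fibroblasts 2 responders lie to the right of every non-responder. For T and NK cells and drug handling responder 2 alone does. For mitosis and p53 targets the 3 responders lie among the non-responders.

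Milk protein genes were high in responder 1 in particular. Csn2, which encodes beta-casein, was 5.17 in responder 1 and 0.96 in responder 2, was not measured in responder 3, and ran from -0.69 to 1.00 in 7 non-responders with a median of 0.20. Csn1s2a, another casein, was 4.25, 1.46 and -1.45 in responders and -6.37 to -0.06 in non-responders. Its difference was 3.19 ± 1.29 with responder 1 and 0.76 without it. Milk genes gave 2 of 16 members higher (12.5%) and 0 lower, beside 3.23% and 3.39% of all genes. They gave 0 of either without responder 1, and also without responder 2. Csn2 could not be tested in these 2 cases, since too few responders with a value remained.

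Luminal epithelial genes went both ways, with 2 higher and 2 lower of 24 (8.33% each, beside 3.23% and 3.39% of all genes) and a median of -0.03. Elf5, an ETS transcription factor that drives the alveolar luminal lineage and milk production, was -0.18, -0.15 and -1.37 in responders. In non-responders it was 0.42 at the lowest, 1.53 at the median and 2.14 at the highest, and in untreated tumours 1.03 to 3.53. All 3 responders lay below all 9 non-responders and all 7 untreated tumours. The difference was -1.92 ± 0.42, a 3.78-fold lower level, with an adjusted p of 0.592, and was -1.88 with title style as a further term, -1.85 within the hyphen-titled tumours and -2.15 to -1.53 when 1 tumour was left out. In the shared-number pair, which was part of the fit that chose Elf5, it was -3.51. Without the pair the difference was -1.44. The casein and Elf5 values do not run together, since responder 1 had the highest Csn2 and a low Elf5.

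Krt19, a keratin of luminal cells, was -0.78, -0.40 and -0.25 in responders and 0.05 to 0.82 in non-responders with a median of 0.33, again with no overlap. Unlike Elf5, Krt19 in responders lay within the untreated range, -2.45 to 0.10 with a median of -0.31. It differed by -0.87 ± 0.22, and by -0.50 with title style as a further term. Esr1, the oestrogen receptor, was 2.08, 1.80 and 1.17 in responders and 0.19 to 1.18 in non-responders, a difference of 0.92 ± 0.27 over the mean of 11 spots. Its spots ran in opposite directions, from -0.73 to 1.30, so the direction for the gene depends on the probe. Cd24a, a surface protein of luminal cells, differed by 0.59 ± 0.22. Among basal and myoepithelial genes, Sox10, a factor of mammary stem and progenitor-like cells, was -0.02, 0.49 and 0.69 in responders and 0.43 to 2.67 in non-responders, a difference of -1.29 ± 0.52. Krt15 differed by 0.49 ± 0.20 in the other direction. The list had 1 of 22 members higher and 1 lower (4.55% each, beside 3.23% and 3.39% of all genes).

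The genes of smallest p in each direction are named whatever their function. Among the 12 higher in responders, differences ran from 0.74 to 1.88 and adjusted p was 0.592 for each. For 8 of the 12 the groups did not overlap, which the choice by smallest p in the same tumours favours. Over all genes judged the share was 0.926%. Bcl11b, a zinc-finger factor of T-cell commitment and of basal epithelia, was -0.40, -0.02 and 0.24 in responders and -2.29 to -0.71 in non-responders with a median of -1.50. Its difference was 1.52 ± 0.34, and 1.58 with title style as a further term. The T and NK cell list does not run with it over the responders: its mean was -0.20, 1.27 and -0.50 in responders 1 to 3, and -0.68 to 0.40 in non-responders.

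Paqr3, a Golgi protein that holds Raf kinase, was 0.93, 2.48 and 1.65 in responders and -0.09 to 0.88 in non-responders, a difference of 1.37 ± 0.31 that was 1.77 with title style as a further term. Tmub1, a ubiquitin-like membrane protein, was 1.24, 1.16 and 1.55 in responders and 0.25 to 0.80 in non-responders, a difference of 0.82 ± 0.17. Hscb, a co-chaperone of iron-sulphur cluster assembly, was -0.44, -0.17 and -0.30 beside -1.30 to -0.86. Each of these 3 genes had all responders above all non-responders. Kcnmb4, a subunit of calcium-activated potassium channels, differed by 1.57 ± 0.36 and by 0.81 with the title style term, and Cox18, needed to insert a subunit of cytochrome oxidase, by 0.86 ± 0.21 and 0.45. Iffo2 and Lhx1os differed by 1.66 ± 0.35 and 1.88 ± 0.42 with 1 or more non-responders inside the responder range. The other genes, with Eno3 described above, were Gm14461 at 1.26, Zfp862-ps at 1.31 and Olfr284 at 1.07, the last measured in 2 responders.

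Among the 12 lower in responders, differences were 0.90 to 2.06 in size and adjusted p was 0.179 to 0.592. The groups did not overlap for 9 of 12, again favoured by the choice, and for 0.84% of all genes judged. The smallest p belonged to 8430432A02Rik, at -1.53 and -1.93 in responders 1 and 3 and -0.37 to 0.46 in non-responders. It was not measured in responder 2. Its difference was -1.73 ± 0.22. Echdc3, a mitochondrial hydratase-like protein, was -2.03, -1.99 and -2.03 in responders, the tightest of the genes named in this direction, and -1.42 to -0.30 in non-responders. Eml2, a microtubule-binding protein, was -0.23, -1.47 and -1.29 in responders and 0.20 to 1.27 in non-responders, a difference of -1.57 ± 0.27. In both genes every responder lay below every non-responder.

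Vdac1, the main channel of the outer mitochondrial membrane, was -0.34, -1.07 and -1.18 in responders and -0.45 to 1.04 in non-responders. Its difference was -1.28 ± 0.24, but -0.75 with title style as a further term and -0.61 within the hyphen-titled tumours. Usp22, a deubiquitinase of the SAGA complex, was -0.20, -1.20 and -0.83 in responders and 0.02 to 0.84 in non-responders, a difference of -1.02 ± 0.20. Pgk2, the testis form of phosphoglycerate kinase, differed by -1.64 ± 0.33 and by -1.10 without responder 1. Fgf23, a phosphate-regulating hormone of bone, differed by -1.69 ± 0.34 and by -0.79 within the hyphen-titled tumours. The remaining genes were Fam219aos at -2.06, Psors1c2 at -1.38, 1700029F12Rik at -1.27 and 4931406C07Rik at -0.90. With title style as a further term 21 of these 24 genes of smallest p were still under an unadjusted 0.05, and 13 of 24 were within the hyphen-titled tumours alone. The 24 were chosen by p on the same arrays, so these counts are no separate check. Of all 1228 genes under 0.05, 262 and 164 stayed so in these 2 settings.

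**Figure D3:**
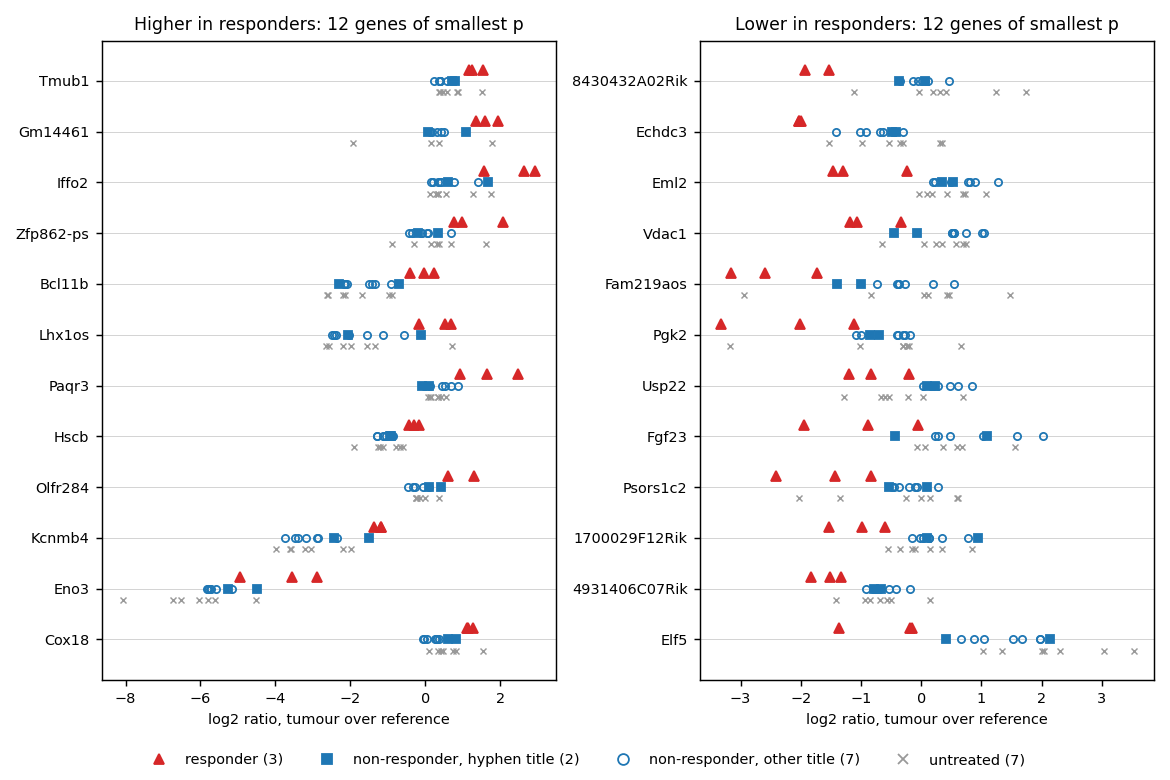
Log2 ratio of the 12 genes of smallest p in each direction in every tumour, with the ratio of tumour over reference on the horizontal axis; triangles are responders, filled squares hyphen-titled and open circles the other non-responders, and crosses untreated tumours. For Elf5 the 3 responders, at -1.37 to -0.15, lie left of all non-responders and all untreated tumours.

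**Figure D4:**
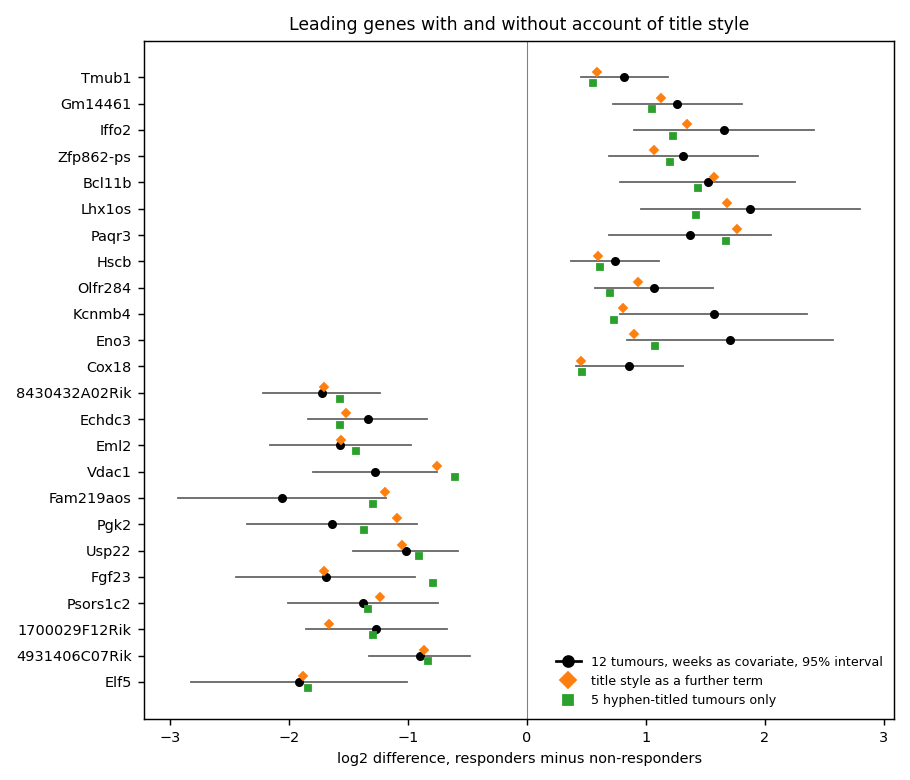
Log2 difference of the same 24 genes, responders minus non-responders, on the horizontal axis; black points with lines are the 12 tumours with weeks as covariate and 95% intervals, diamonds have title style as a further term, and squares use the 5 hyphen-titled tumours. Elf5 stays near -1.9 in all 3, while Vdac1 goes from -1.28 to -0.61. The squares come from a fit without a weeks term.

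Genes on which platinum and taxane sensitivity is known to depend showed no difference that passed, and they are given with 95% intervals. They belong to a fixed panel of drug and tumour genes, unless stated otherwise. It also holds keratins, Vim, Esr1, Cdkn1a, Rb1 and the proliferation genes Mki67 and Top2a, given below or above. In the whole panel 20 genes could be tested, and the 95% intervals of 19 of them included 0. The interval of Esr1 did not. Intervals in the panel reached 0.43 to 1.41 to either side. Abcb1a, one of the mouse genes for the P-glycoprotein drug pump, was 0.32, -0.73 and 0.26 in responders and -3.45 to 0.73 in non-responders. Its difference was 0.77 with an interval of -0.64 to 2.18. It was 1.73 with title style as a further term, 1.85 within the hyphen-titled tumours and 3.71 in the shared-number pair. Non-responder 1, the lowest at -3.45, is 1 of the 2 hyphen-titled non-responders and is in that pair. Without the pair the difference was 0.19, and with 1 tumour left out it was 0.40 to 1.05. For Abcb1b, the other P-glycoprotein gene, the difference was 0.42 (-0.44 to 1.27). The copper transporters that carry platinum drugs differed by -0.24 (-0.68 to 0.19) for the importer Slc31a1, by -0.28 (-1.07 to 0.50) for Atp7a and by -0.01 (-0.52 to 0.50) for Atp7b.

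Of the repair genes in the panel, Ercc1, a subunit of the nuclease that cuts at platinum adducts, differed by -0.17 (-0.62 to 0.28), and by 0.22 with title style as a further term. Brca1 and Brca2 of homologous recombination differed by -0.45 (-1.33 to 0.44) and 0.24 (-0.29 to 0.78). Fanca, of the Fanconi anaemia core complex, is outside the panel and was 1.73, 1.28 and 1.44 in responders and 0.71 to 1.11 in non-responders, without overlap. It differed by 0.61 ± 0.17 with an adjusted p of 0.613. It was the only member of 25 in its repair list under an unadjusted 0.05 (4% higher beside 3.23% of all genes). In the list of nucleotide excision and mismatch repair 0 of 21 members were. Tubb3, the beta-tubulin often linked to taxane resistance, differed by -0.23 (-0.75 to 0.28) and Mapt, the microtubule-binding tau protein, by -0.26 (-0.96 to 0.43). The drug and platinum handling list had a median of 0.13, which was -0.11 without responder 2 and 0.27 without responder 3. It had 1 of 28 members under 0.05 (3.57% higher beside 3.23% of all genes). That member, Gsr, which keeps glutathione reduced, was 2.30, 2.16 and 1.93 in responders and 0.73 to 1.95 in non-responders, a difference of 0.82 ± 0.24, and Clip1, a protein of growing microtubule ends, differed by 0.61 ± 0.25.

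Proliferation genes gave few differences at an unadjusted p under 0.05. Mki67, the Ki-67 antigen of cycling cells, differed by -0.04 (-0.48 to 0.41), Top2a by -0.40 ± 0.28 (SE) and Rb1 by 0.20 (-0.28 to 0.67). Of 29 mitosis genes 2 were lower and 0 higher (6.9% beside 3.39% of all genes), with a median of -0.29 and 5 above 0. They were Bub1, a kinase of the spindle checkpoint, at 0.78, 0.70 and 1.28 in responders and 1.27 to 2.03 in non-responders, and Kif20a, a kinesin of cytokinesis, which differed by -0.65 ± 0.20. Bub1 differed by -0.75 ± 0.20, and responder 3 lay just above the lowest non-responder. The list's median was -0.02 with title style as a further term, its count of lower genes was 5 without responder 3, and its mean of 1.34 in responder 3 was above the non-responder median of 1.32. Of the DNA replication genes Mcm2, a helicase subunit, differed by 0.49 ± 0.19 and Pola1, a polymerase subunit, by -0.70 ± 0.24.

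Targets of p53 had 1 of 29 members under 0.05 (3.45% higher beside 3.23% of all genes). It was Eda2r, a death-domain receptor, at 1.16, 0.29 and 1.34 in responders and -1.05 to 1.27 in non-responders. Cdkn1a, the p21 inhibitor of cyclin-dependent kinases, differed by 0.07 (-0.67 to 0.81). Apoptosis regulators had 0 of 25 and interferon-stimulated genes 0 of 28. Cytosolic ribosomal protein genes had 2 of 27 lower (7.41% beside 3.39% of all genes), Rpl7 by -0.51 ± 0.22 and Rpl14 by -0.57 ± 0.26. The list's median of -0.16 became 0.18 with title style as a further term. Of the mitochondrial respiratory chain genes Ndufs3 differed by -0.35 ± 0.15 without overlap, and Cox5a by 0.42 ± 0.19.

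Protein folding genes gave 4 of 25 members higher (16%) and 1 lower (4%), beside 3.23% and 3.39% of all genes, with a median of 0.32 that was 0.15 with title style as a further term. Herpud1, a protein of endoplasmic-reticulum-associated degradation, was -0.05, -0.56 and -0.53 in responders and -1.52 to -0.79 in non-responders, without overlap, a difference of 0.75 ± 0.23. Calr, the calcium-binding chaperone calreticulin, differed by 0.61 ± 0.23, Chac1, which degrades glutathione under stress, by 0.74 ± 0.30, and Sdf2l1, a chaperone of the same compartment, by 0.85 ± 0.36. Sdf2l1 differed by 0.15 with title style as a further term, and the list then had 1 member higher. Without responder 1 the count of higher genes was 1, and without responder 3 it was 2.

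Wnt genes gave 6 of 30 higher (20%) and 1 lower (3.33%), beside 3.23% and 3.39% of all genes, with a median of 0.22. The list mean was 0.34, -0.32 and -0.11 in responders, and -0.62 to 0.03 in non-responders with a median of -0.22. Responder 1 alone was thus above all non-responders, and responder 2 was below their median. Wnt10b, a ligand expressed in the early mammary bud, was 2.36, 0.65 and 0.66 in responders and -2.97 to 0.46 in 8 non-responders, a difference of 1.92 ± 0.60 without overlap. Axin2, a feedback target of the pathway, was -0.23, -0.60 and -0.94 in responders and -2.26 to -0.29 in non-responders, where non-responder 2 was the highest. It differed by 1.06 ± 0.37. The receptors Fzd4 and Fzd8 differed by 0.83 ± 0.34 and 0.92 ± 0.39. With title style as a further term Wnt10b differed by 0.65, Axin2 by 0.73, Fzd4 by 0.37 and Fzd8 by 0.51, and 1 gene of the list was higher and 1 lower. Without responder 1 the counts were 1 and 0, and the counts of higher genes were 3 without responder 3 and 3 without non-responder 8.

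Immune and stromal lists held few members under an unadjusted 0.05. The T and NK cell list had 0 of 27 members under 0.05 in either direction and a median of 0.29. The median was 0.61 without responder 1, -0.35 without responder 2 and 0.83 without responder 3, with 3 members higher in the last case. Responder 2 alone, at a list mean of 1.27, was above the non-responder maximum of 0.40. Fibroblast and collagen genes had 0 of 27, and the list mean was -0.09, -0.16 and -1.84 in responders beside -2.23 to -0.18 in non-responders. Endothelial genes had 0 of 26, and adipocyte genes 0 of 17 with a median of 0.08. That median was -0.13 without responder 1, -0.37 without responder 2 and 0.96 without responder 3, with 3 members higher in the last case. It was -0.39 with title style as a further term and -0.68 within the hyphen-titled tumours, with 2 and 1 members lower. Macrophage genes had 0 of 26 higher and 1 lower (3.85% beside 3.39% of all genes), Chil3, a chitinase-like protein of alternatively activated mouse macrophages. Chil3 was -2.11, -1.67 and -3.54 in responders and -1.41 to 0.47 in non-responders with a median of -0.57, and -0.23 to 2.39 in untreated tumours.

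Every responder thus lay below every non-responder and every untreated tumour for Chil3. It differed by -1.97 ± 0.49, and by -2.29 with title style as a further term and within the hyphen-titled tumours. Without the shared-number pair Chil3 differed by -1.44, and with 1 tumour left out by -2.34 to -1.39. The mean of the macrophage list was 1.37, 1.68 and 0.57 in responders 1 to 3, beside 0.81 to 1.54 in non-responders. Responder 2 thus lay above all non-responders, and responder 3, which had the lowest Chil3, below all of them. The list's median difference of 0.20 was 0.12 without responder 1, -0.07 without responder 2 and 0.45 without responder 3. Ccl3, a chemokine that draws monocytes, was 3.18, 3.44 and 2.49 in responders and 0.61 to 2.95 in non-responders, a difference of 1.25 ± 0.43. It was the 1 member of 30 in the chemokine list under 0.05 (3.33% higher beside 3.23% of all genes). The mean of that list was 1.37, 1.52 and 0.64 in responders and 0.77 to 1.80 in non-responders. Spib, an ETS factor of B cells and plasmacytoid dendritic cells, was 0.54, 0.86 and 1.20 in responders and -3.05 to -0.10 in 8 non-responders, a difference of 1.83 ± 0.55 without overlap. Cr2, a complement receptor of B cells, differed by -1.99 ± 0.72 over 2 responders and by -0.41 without responder 1. Of 19 members of the B and plasma cell list, Spib alone was higher and Cr2 alone lower (5.26% each, beside 3.23% and 3.39% of all genes). The median of that list was 0.08. Stfa3, a neutrophil stefin, was -2.07, -5.36 and -2.57 in responders and -6.82 to -3.94 in non-responders, high in responders 1 and 3 as were the squamous genes. It differed by 2.20 ± 0.71, and by 1.23 with title style as a further term. The neutrophil list did not run with it, with a median of -0.16 and 8 of 21 members above 0. Stfa3 was its 1 member under 0.05 (4.76% higher beside 3.23% of all genes). Tpsab1, a mast cell tryptase, differed by -0.79 ± 0.34, and by -0.22 with title style as a further term. It was the 1 member of 12 in the mast cell list under 0.05 (8.33% lower beside 3.39% of all genes). Most of that list went the other way, with a median of 0.10 and 8 of 12 above 0.

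Growth factor genes gave 1 of 25 higher and 1 lower among EGF receptor ligands and receptor kinases (4% each, beside 3.23% and 3.39% of all genes). Pdgfa, a ligand of the PDGF receptors, differed by 0.57 ± 0.22 and Erbb4, an EGF receptor family member, by -0.48 ± 0.21. Tgfb2, a TGF-beta ligand placed here with epithelial-mesenchymal transition, was 0.67, 0.07 and 0.36 in responders and -2.36 to -0.06 in non-responders, with no overlap. It differed by 1.55 ± 0.43, a 2.94-fold higher level, with an adjusted p of 0.62 and a value of 1.17 with title style as a further term. Vim, the mesenchymal filament vimentin, differed by 0.04 (-0.80 to 0.88). The keratins of the panel differed by 0.86 (-0.19 to 1.90) for Krt5, 0.25 (-0.30 to 0.81) for Krt14, 0.01 (-0.58 to 0.60) for Krt8 and -0.44 (-1.45 to 0.58) for Krt18. The glycolytic enzyme Pfkp differed by -0.56 ± 0.21 and the AP-1 subunit Jund by 0.55 ± 0.23, and both were smaller with title style as a further term, at -0.19 and 0.11. Notch genes had 0 of 21.

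Over the 34 lists other than the panel, 45 of 805 genes (5.59%) were higher and 16 (1.99%) lower at an unadjusted p under 0.05, beside 3.23% and 3.39% of all genes. In 10 of the 34 lists no member was under 0.05, and list medians ran from -0.34 for erythroid genes to 0.72 for muscle. The pair of tumours with the shared number was also set beside genes and signs taken from the other tumours. Without the pair, 2 responders and 8 non-responders gave 1174 genes at an unadjusted p under 0.05 that were also measured in the pair. Of these, 699 (59.5%) had the same sign between responder 3 and non-responder 1, and so did 8589 of the 16191 other genes (53%). Both shares come from 1 difference between 1 responder and 1 non-responder. Genes are not replicates of it, so whether the shares differ was not tested.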

How the data were processed

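The authors deposited 1 log2 ratio per spot and array for 19 arrays of 2 colours. Per the labels, tumour RNA was in Cy5 and whole-mouse reference RNA in Cy3 throughout, without a dye swap. The log base of the deposited values, the direction and centring of the ratio, the meaning of an exact 0, the scanner, the background correction and the normalization were not given in the sources used here. A log2 scale was taken from the range of the values. Spots with 1 annotated gene (33653), measured on at least 70% of arrays, were averaged per gene. A gene was tested with at least 2 responders and 4 non-responders. The fit within the hyphen-titled tumours had no weeks term and asked for at least 2 non-responders. That of the 3-week tumours had no weeks term and asked for at least 3. Differences were fitted with limma 3.58.1 in R 4.3.3 (lmFit, eBayes, two-sided, weeks as covariate, 95% intervals), with Benjamini-Hochberg adjustment over 18571 genes and a threshold of 0.05, and the fit was checked on simulated data. Groups were called not overlapping with 3 responders and at least 7 non-responders measured. Members and the 35 gene lists were chosen with earlier results of these data known. Named were the 12 genes of smallest p per direction, up to 4 members per list among those with an unadjusted p under 0.05, and the whole panel. Alternatives covered weeks, title style, the shared number, normalization, zeros, filters, spots, array weights and leaving out each tumour. Replicates are numbered in accession order. Precision is limited by the number of arrays, and signal over background was not analysed here.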

Additional observations from a re-analysis of the deposited data

Results flagged for a closer look

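Among 176 groups of values of the named genes, 18 held a tumour that stood apart from the rest of its group by Dixon's criterion at the 95% level, which chance meets in about 1 in 20 groups. Non-responder 2 accounted for 5 of them: it was the highest non-responder for Eno3 (-4.49), Actn3 (-2.83), Axin2 (-0.287) and Fzd4 (-0.426), and the lowest for Rpl7 (-1.22). Other non-responders stood apart for Gm14461 (non-responder 1, 1.08), Cr2 (non-responder 6, 3.74), Csn1s2a (non-responder 9, -6.37) and Wnt10b (non-responder 4, -2.97). Among untreated tumours, replicate 1 was lowest for Krt1 (-4.17), Krt19 (-2.45) and Rpl14 (-2.88), replicate 5 was lowest for Wnt10b (-1.35) and highest for Erbb4 (1.00), and replicate 7 was highest for Lhx1os (0.728) and lowest for Pfkp (-0.861). Untreated replicate 6 was lowest for Eda2r (-1.55), and untreated replicate 2 was highest for Tgfb2 (0.474). All values are log2 ratios of tumour over reference. Groups of 3, and so the responders, were not examined in this way.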

How the results depend on the processing

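The count of genes passing adjustment, 0, became 1 in 4 settings: Krt88 in the 3-week tumours (-2.68, adjusted p 0.0328), Fam184a without the pair of the shared number (-2.76, 0.0118), Ino80 with the most variable spot per gene (-3.03, 0.00280) and Krt10 without responder 2 (2.66, 0.0374), so leaving out 1 tumour gave 0 to 1. These genes were named after their values were seen. Genes at an unadjusted p under 0.05 (1228, with 599 higher and 629 lower) numbered 752 (392 and 360) in the 3-week tumours, 660 (281 and 379) with title style as a term and 597 (254 and 343) within the hyphen-titled tumours. Leaving out 1 tumour gave 750 to 1622 in all, 399 to 837 higher and 351 to 785 lower. Responder 1 is the one 2-week responder, so leaving it out and using the 3-week tumours give near-equal differences for most named genes and lists. Only 13 named genes changed sign under any alternative, all in the panel and all but Esr1 with an interval that spans 0. Values with a changed sign are given with the reported value first. Esr1 (0.92) was -0.73 (most variable spot). Atp7b (-0.0079) was 0.033 (no weeks term), 0.033 (all 19 tumours), 0.25 (3-week tumours), 0.060 (quantile normalization), 0.037 (array weights) and -0.14 to 0.25 with 1 tumour left out. Ercc1 (-0.17) was 0.22 (title style as a term) and 0.29 (hyphen-titled tumours). Brca1 (-0.45) was 0.0049 (title style as a term) and 0.049 (hyphen-titled tumours). Brca2 (0.24) was -0.016 (most variable spot). Tubb3 (-0.23) was 0.15 (3-week tumours) and -0.38 to 0.15 with 1 tumour left out. Mapt (-0.26) was 0.037 (3-week tumours), 0.032 (most variable spot) and -0.45 to 0.037 with 1 tumour left out. Mki67 (-0.036) was 0.25 (3-week tumours), 0.082 (title style as a term), 0.023 (hyphen-titled tumours), 0.0057 (quantile normalization), 0.28 (most variable spot) and -0.18 to 0.25 with 1 tumour left out. Cdkn1a (0.067) was -0.0052 (no weeks term), -0.0052 (all 19 tumours), -0.0014 (no shared-number pair), -0.039 (array weights) and -0.053 to 0.20 with 1 tumour left out. Rb1 (0.20) was -0.00050 (3-week tumours), -0.30 (most variable spot) and -0.00050 to 0.35 with 1 tumour left out. Krt8 (0.012) was -0.018 (no weeks term), -0.018 (all 19 tumours), -0.084 (3-week tumours), -0.0049 (title style as a term), -0.0059 (no shared-number pair), -0.018 (quantile normalization), -0.025 (array weights) and -0.084 to 0.13 with 1 tumour left out. Krt18 (-0.44) was 0.13 (title style as a term) and 0.13 (hyphen-titled tumours). Vim (0.040) was -0.37 (3-week tumours), -0.020 (hyphen-titled tumours), -0.023 (zeros kept as values), -0.29 (spots on every array) and -0.37 to 0.25 with 1 tumour left out. The median difference of a list moved by more than the SD between non-responders in 17 cases. Beside those in the report, these were, without the shared-number pair, T and NK cells (0.70), macrophages (0.46) and skeletal muscle (1.13), with title style as a term, immediate-early genes (-0.24), and within the hyphen-titled tumours, nucleotide excision and mismatch repair (0.18) and ribosomal proteins (0.16). No paired analysis was possible because replicate numbers follow accession order and 1 responder shares a title number with 1 non-responder. Title number as a random block could not be fitted, since it leaves too few repeated numbers, and was not run. With 3 responders, 2 of them after 3 weeks, and all hyphen-titled, response and title style are told apart only through non-responders 1 and 2.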
